A study of Homo sapiens with 6 samples.

Results

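N6-methyladenosine (m6A) is a methyl mark on the adenosines of mRNA that is placed by writers, removed by erasers and bound by readers. The 10 genes described here are those that encode 4 writer proteins (METTL3, METTL14, WTAP and RBM15), 2 erasers (FTO and ALKBH5) and 4 readers of the YTH family (YTHDF1, YTHDF2, YTHDF3 and YTHDC1). They were taken by symbol, as 10 of the 58302 genes in the table of NAT10 RNA immunoprecipitation sequencing (RIP-seq), by a rule that uses no measured value, although it was written with earlier results of these data known. All 10 were found, and all 10 were among the 12324 genes with an Input level of at least 1 FPKM (read fragments per kilobase, relative to library depth) in both cell lines.

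The m6A writer complex is built around METTL3, the catalytic methyltransferase, and METTL14, its partner in binding RNA, while WTAP anchors the complex and RBM15 guides it to its targets. FTO and ALKBH5 are demethylases. The cytoplasmic YTHDF readers are known for directing methylated mRNAs to translation and decay, and YTHDC1 reads the mark in the nucleus. NAT10, the protein precipitated here, is an acetyltransferase that writes a different mark, N4-acetylcytidine (ac4C). The values below therefore concern whether mRNAs of the m6A machinery were recovered with NAT10 and carried ac4C, and they do not measure m6A.

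SW480 and DLD-1 are human colorectal cancer cell lines, and both were used as wild-type, untreated cells. Each line gave 1 Input library of total RNA, 1 library of RNA recovered with a NAT10 antibody (RIP) and 1 library of fragmented RNA recovered with an ac4C antibody (acRIP). There were thus 6 groups of 1 library, so no difference within a line has a replicate check, and the counting standard errors (SE) given here cover read sampling only, since PCR copies are not independent molecules. Fewer cells and less RNA per cell cannot be told apart in such bulk samples. The reads recovered from the FPKM values came to at least 25502601 for RIP SW480, 20956934 for RIP DLD-1, 11313805 for Input SW480 and 10768324 for Input DLD-1, and each of the 10 genes had between 245 and 5644 reads in each of these libraries.

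Library labels went against the data in a way that touches every ratio below. Across 16196 protein-coding genes, RIP SW480 had a Pearson r of 0.944 with Input DLD-1 but 0.871 with Input SW480, and RIP DLD-1 had 0.951 with Input SW480 but 0.856 with Input DLD-1. Among 9 markers of colorectal epithelium, 7, 8, 7 and 6 exceeded 1 FPKM in RIP SW480, Input SW480, RIP DLD-1 and Input DLD-1, with summed levels of 1396, 3372, 2919 and 1703 FPKM. CDX1 was listed at 0 in RIP SW480, RIP DLD-1 and Input DLD-1, and KRT20, a marker of differentiated colonic cells, was listed at 0 in RIP SW480, while it stood at 29.2 FPKM in Input SW480, 23.9 in RIP DLD-1 and 0.0426 in Input DLD-1. The summed level of 7 markers of other cells was 129, 1.56, 1.52 and 11.5 FPKM in the same order, with CD3E at 0 in all 4 libraries, and only VIM and CD14 exceeded 1 FPKM in any of them. VIM, which encodes vimentin, stood at 128 FPKM in RIP SW480 and 11.1 in Input DLD-1, but at 0.077 in Input SW480 and 0.804 in RIP DLD-1. The part of these markers in the results below was not tested. Groups were kept as labelled, each library is named by its label, and RIP was set against the Input of both labels.

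mRNAs of all 10 factors were present in both Inputs, at levels that differed widely between genes. The Input labelled SW480 ranged from 3.14 FPKM for METTL14 to 37.7 for YTHDF1, with a median of 23.6 against 8.66 over all tested genes, and the Input labelled DLD-1 ranged from 2.72 for METTL14 to 64.9 for ALKBH5, with a median of 16.3 against 9.06. In both Inputs YTHDF1 stood above YTHDF2, followed by RBM15, WTAP, YTHDC1, YTHDF3, METTL3, FTO and METTL14 in this order. The eraser ALKBH5 was the member that changed its place, at rank 4 in the Input labelled SW480 and rank 1 in that labelled DLD-1. In the Input labelled SW480, RBM15, ALKBH5, WTAP and YTHDC1 (25.0, 23.7, 23.6 and 23.6 FPKM) could not be ordered, as each gap to the next was at most 1.32 counting SE. YTHDF3 and METTL3 there lay 1.59 counting SE apart. The acRIP expression table listed Inputs from 2.06 FPKM (FTO) to 28.2 (YTHDF1) for SW480, and FTO and ALKBH5 were the lowest and highest for DLD-1. Its values did not differ from those above by 1 common factor. For SW480, METTL3 was lower there (5.29 against 9.84 FPKM), but METTL14 was higher (4.37 against 3.14). Whether that table holds other libraries or another way of counting was not tested. In that table ALKBH5 was at 17.1 and 46.2, YTHDF3 at 8.40 and 8.65, and METTL14 at 4.37 and 3.27, above FTO.

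**Figure D1:**
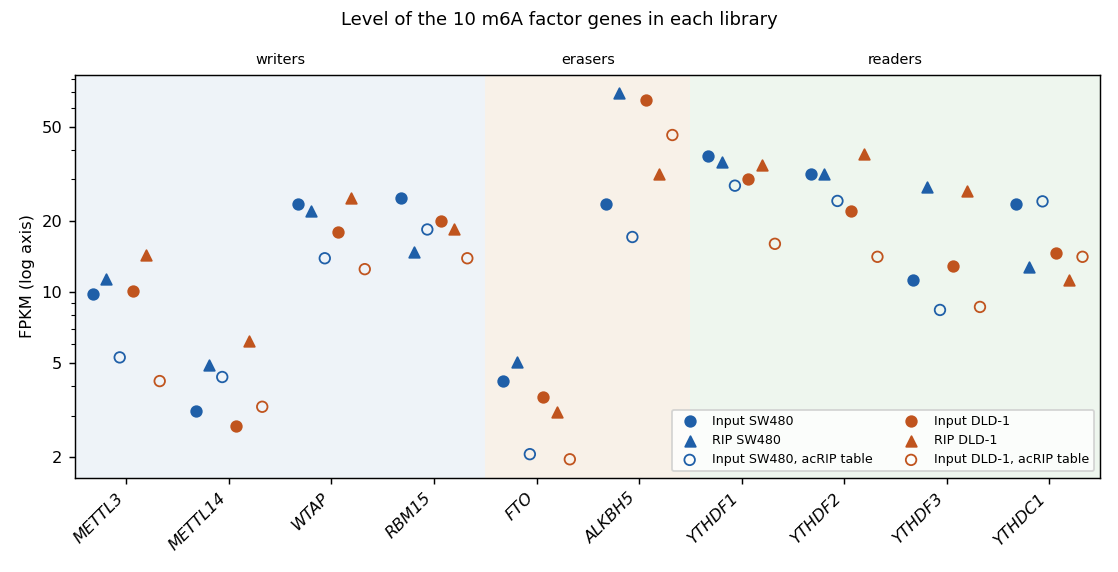
FPKM (log axis) of each of the 10 genes in the RIP and Input libraries with the SW480 label (blue) and the DLD-1 label (orange), with the Input values of the separate acRIP expression table as open circles and 1 library per point. ALKBH5 has its high values in the RIP labelled SW480 (69.3) and the Input labelled DLD-1 (64.9), and YTHDF3 lies near 27 FPKM in both RIP libraries against 11.2 and 12.9 in the Inputs.

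Between the Inputs, ALKBH5 was the 1 member past a 2-fold difference, the size from which a gene is called higher or lower here. Its log2 difference, taken as log2((SW480 FPKM + 1)/(DLD-1 FPKM + 1)), was -1.42 (counting SE 0.06), a level 2.67-fold higher in the Input labelled DLD-1, and the Inputs of the acRIP table gave -1.38. Of all tested genes 9.29% were at least 2-fold higher in the Input labelled DLD-1 and 7.25% in that labelled SW480. The other 9 genes ranged from -0.19 for YTHDF3 to 0.65 for YTHDC1. METTL3 (-0.03, SE 0.11) and YTHDF3 (SE 0.12) differed by less than 2 counting SE, as did METTL14 (0.15, SE 0.12). The Inputs of the acRIP table placed METTL3 at 0.27 and YTHDF3 at -0.04. YTHDC1, YTHDF2 and YTHDF1 were higher in the Input labelled SW480 in both tables, at 0.65, 0.50 and 0.31 in the RIP table and 0.74, 0.74 and 0.78 in the acRIP table.

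NAT10 RIP was then set against Input to ask whether these mRNAs were recovered with NAT10 beyond their abundance. In the SW480-labelled pair, 2 of the 10 (ALKBH5 and YTHDF3) were called higher in RIP and 0 lower, while 15.6% of all tested genes were called higher and 16% lower. In the DLD-1-labelled pair, 0 were called higher and 1 (ALKBH5) lower, against 15.1% and 19.2% of all genes. Over the opposite-label Input, YTHDF3 was the 1 gene called higher in each RIP library and 0 were called lower. The backgrounds there were 9.24% higher and 11.7% lower for RIP labelled SW480, and 9.36% and 11.8% for RIP labelled DLD-1. The median log2 ratio of the 10 genes was 0.09 and 0.32 in the pairs labelled SW480 and DLD-1 (0.05 and -0.05 over all tested genes), and 0.25 and 0.17 over the opposite-label Inputs (0.02 and -0.00). Set beside these shares, the counts do not mark out the 10 genes.

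**Figure D2:**
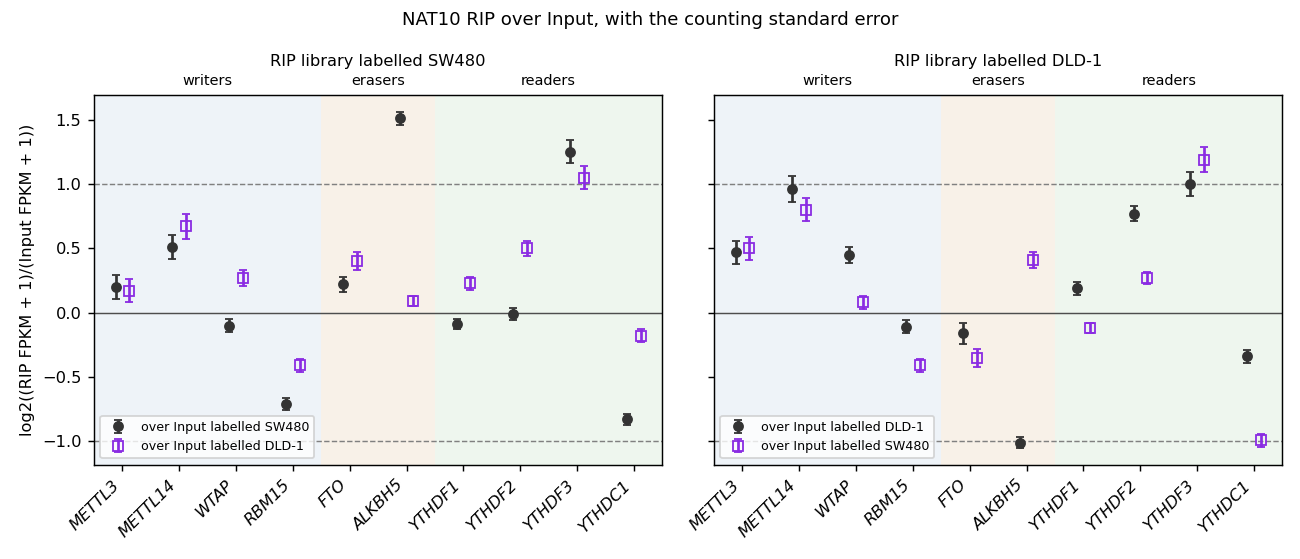
log2((RIP FPKM + 1)/(Input FPKM + 1)) of the 10 genes in the RIP library labelled SW480 (left) and DLD-1 (right), over the Input of the same label (filled circles) and of the opposite label (open squares). Bars are counting SE and dashed lines mark 2-fold. ALKBH5 lies at 1.51 and -1.01 over the Inputs of the same label but at 0.09 and 0.41 over the others, and YTHDF3 lies between 1.0 and 1.25 in the 4 ratios.

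Among the writers no gene passed 2-fold over either Input of the RIP table. METTL3 was at 11.4 FPKM in RIP and 9.84 in Input labelled SW480, and at 14.3 and 10.1 in those with the DLD-1 label. RIP was above both Inputs in each case, with log2 ratios of 0.20 (counting SE 0.09) and 0.47 (0.09) over the same label and 0.17 and 0.50 over the opposite label. METTL14, the lowest of the writers, was at 4.90 and 3.14 FPKM in RIP and Input labelled SW480 and at 6.21 and 2.72 in those with the DLD-1 label. Both RIP values of METTL14 lay above both Inputs. Its log2 ratios were 0.51 (0.09) and 0.96 (0.10), the second a 1.94-fold difference, and 0.67 and 0.80 over the opposite label. With a pseudocount of 0.1 METTL14 passed 2-fold in the pair labelled DLD-1 (1.16), but over the acRIP-table Inputs it was at -0.25 and 0.34, whereas METTL3 there was at 0.59 and 1.12, the second past 2-fold. WTAP, the scaffold of the complex, had 22 and 23.6 FPKM in RIP and Input labelled SW480 and 25.0 and 18.0 in those with the DLD-1 label, and the groups overlapped. Its log2 ratios of -0.10 (0.05) and 0.45 (0.06) had opposite signs. RBM15 was lower in RIP than in either Input, with 14.8 and 18.5 FPKM in RIP SW480 and RIP DLD-1, below the 25.0 and 20 in Input SW480 and Input DLD-1. That gave log2 ratios of -0.71 (0.05) and -0.11 (0.05), and -0.41 in both RIP libraries over the opposite-label Input.

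Of the erasers, ALKBH5 had the most divergent values of all 10 genes. It stood at 69.3 FPKM in RIP and 23.7 in Input labelled SW480, with 5644 and 951 reads, and at 31.7 and 64.9 FPKM in those with the DLD-1 label, with 2194 and 2407 reads. The RIP library with the high value thus carried the opposite label to the Input with the high value. As labelled, RIP was 2.85-fold higher in SW480 (log2 1.51, SE 0.05) and below the Input in DLD-1 (fold 0.496, log2 -1.01, SE 0.04). Over the opposite-label Input the log2 ratios were 0.09 (0.04) and 0.41 (0.06), neither of them past 2-fold. FTO was at 5.07 and 4.22 FPKM in RIP and Input labelled SW480 and at 3.11 and 3.59 in those with the DLD-1 label. Its log2 ratios of 0.22 (0.06) and -0.16 (0.08) differed in sign, as did those over the opposite label, 0.40 (0.07) and -0.35 (0.07). Over the acRIP-table Inputs both were above 0, at 0.67 and 0.11 on the same label and 0.67 and 0.10 on the opposite label. FTO was also 0.56 higher on the log2 scale in RIP labelled SW480 than in RIP labelled DLD-1, whereas its Inputs differed by 0.19.

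Among the readers, YTHDF3 had the highest mean RIP over Input. It was at 27.9 FPKM in RIP and 11.2 in Input labelled SW480, with 1432 and 283 reads, and at 26.8 and 12.9 FPKM in those with the DLD-1 label, with 1169 and 302 reads. Both RIP values exceeded both Inputs by about 2-fold or more. On the same labels its log2 ratios were 1.25 (SE 0.09; 2.37-fold) and 1.0 (0.09; 1.997-fold, just short of the call), and over the opposite label 1.05 (0.09) and 1.19 (0.10). Within each RIP library as labelled, these ratios lay at the percentiles 89.5 and 84.8 of all tested genes.

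YTHDC1, the nuclear reader, had the opposite order, with 12.8 and 11.3 FPKM in RIP SW480 and RIP DLD-1, below the 23.6 and 14.7 in Input SW480 and Input DLD-1. Each RIP value was below each Input. The log2 ratios were -0.83 (0.04) and -0.34 (0.05), and -0.18 (0.05) and -0.99 (0.05) over the opposite label. For RIP labelled SW480, centring on protein-coding genes brought YTHDC1 to the 2-fold limit (-1.0), and the Input of the acRIP table brought it past the limit (-1.30). The opposite-label Input of the acRIP table did so for RIP labelled DLD-1 (-1.47). YTHDF2, the reader that recruits the CCR4-NOT deadenylase to methylated mRNA, was at 31.5 and 31.7 FPKM in RIP and Input labelled SW480 and at 38.4 and 22.1 in those with the DLD-1 label. RIP and Input labelled SW480 could not be told apart (-0.01, SE 0.05), while the log2 ratio in libraries with the DLD-1 label was 0.77 (0.06). Over the opposite label YTHDF2 was at 0.50 and 0.27. Within the RIP table YTHDF1 varied least relative to its level, with 35.5 and 37.7 FPKM in RIP and Input labelled SW480 and 34.6 and 30.1 in those with the DLD-1 label. Its acRIP-table Inputs lay further apart, at 28.2 for SW480 and 16 for DLD-1. The log2 ratios of YTHDF1 were -0.09 (0.04) and 0.19 (0.05) and turned to 0.23 and -0.12 over the opposite label.

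A test per gene was possible only by treating the differently labelled lines as replicates, here with the line as a block, which leaves few residual degrees of freedom. In this limma fit on log2(FPKM + 1), 0 of the 10 genes differed between RIP and Input below an adjusted p of 0.05 (Benjamini-Hochberg), and 0 did without adjustment. Over all 12324 genes limma called 0 higher (0%) and 9 lower (0.073%), with 489 and 932 at an unadjusted p under 0.05. YTHDF3 had the lowest adjusted p of the 10, 0.473 by limma, with a mean log2 difference of 1.12 and RIP above Input in both lines. METTL14 followed at 0.73 (limma adjusted p 0.674) and YTHDC1 at -0.59 (limma adjusted p 0.758). With the opposite-label Input in the block, YTHDF3 (limma adjusted p 0.00585) and METTL14 (limma adjusted p 0.024) were called higher. They were the 2 genes that lay above both Inputs by the most. Of all 12324 genes this fit called 2298 higher and 2312 lower. The 2 of 10 called higher are near that share and do not mark out the 10 genes. That fit pairs libraries against their labels, so its calls hold only if the labels of 1 assay are crossed, which was not tested.

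ac4C was mapped next, as peaks called by the authors on each acRIP library and on both libraries pooled. In the list labelled SW480, 4 of the 10 genes (FTO, ALKBH5, YTHDF1 and YTHDF2) carried 1 peak each, and 44.2% of all tested genes had a peak. In the list labelled DLD-1, 8 of the 10 carried 18 peaks, against 48.8% of all genes, and WTAP and RBM15 carried none. In the pooled list, 7 of the 10 carried 14 peaks, against 55.2% of all genes, and METTL14, WTAP and RBM15 carried none. The list labelled DLD-1 was longer as a whole, with 13964 peaks against 9536, and the depth of the acRIP libraries is unknown. Of the 199 genes at 5 FPKM or more in the Input labelled DLD-1 and below 0.1 in that labelled SW480, 24 had a peak in the SW480 list and 17 in the DLD-1 list. For the 135 genes with the reverse Input pattern, 4 had a peak in the SW480 list and 8 in the DLD-1 list. Whether a list's label names its line was not tested.

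Positions of the SW480-labelled peaks were alike, since all 4 lay in 3'-UTRs by the authors' annotation, which placed 53.0% of all SW480 peaks there. Of the 18 peaks in the DLD-1 list, 9 were in 3'-UTRs, 6 in coding sequence (CDS), 2 in exons with no further class and 1 in a 5'-UTR, where the whole list had 41.5%, 38.4%, 18.4% and 1.54%. The median fold of acRIP over Input was 5.17 for the 4 SW480 peaks and 10.2 for the 18 DLD-1 peaks, and over all peaks it was 19.5 and 14.6. In the SW480 list 3 of the 4 peaks and in the DLD-1 list 12 of the 18 were below the median fold of their list. Of the 4 SW480 peaks 3 overlapped a DLD-1 peak on the same strand. All 4 overlapped a pooled peak, as did 13 of the 18 DLD-1 peaks. Overlap between lists was not counted over all peaks, so whether these counts are usual is not known.

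**Figure D3:**
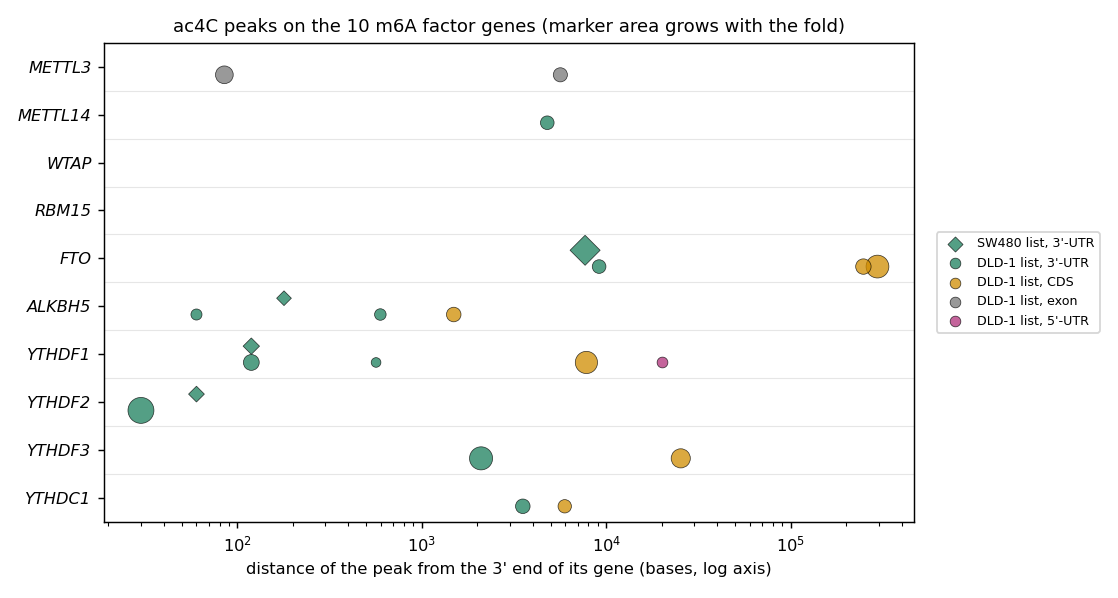
Each ac4C peak on the 10 genes by its distance from the 3' end of the gene (bases, log axis), with diamonds for the SW480 list, circles for the DLD-1 list, colours for the annotated class and marker areas that grow with the fold. The peaks of YTHDF2 and 1 pair on YTHDF1 and on ALKBH5 lie between 30 and 179 bases from the gene end in both lists, WTAP and RBM15 have none, and the 2 CDS peaks of FTO lie far upstream.

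Peaks found with both labels were those at the 3' ends of YTHDF2, YTHDF1 and ALKBH5 (GRCh38). YTHDF2 carried chr1:28769356-28769715 on the plus strand in the SW480 list (fold 4.86, 1 site of the motif searched by the authors) and chr1:28769416-28769745 in the DLD-1 list (fold 38.5, 0 sites), with 300 bases in common. The second had the highest fold of the 18 DLD-1 peaks and lay 30 bases from the gene end. In YTHDF1 the SW480 peak chr20:63195548-63195697 on the minus strand (fold 5.47, 1 site) lay wholly within the DLD-1 peak chr20:63195548-63195726 (fold 12.6, 1 site). ALKBH5 had chr17:18209596-18209775 on the plus strand in the SW480 list (fold 3.87) and chr17:18209686-18209894 in the DLD-1 list (fold 4.72), which shared 90 bases and had no motif site. At an overlap of at least 50% of each peak, the pairs on YTHDF2 and YTHDF1 remained. Ranked by fold within their own list, the SW480 peaks of YTHDF2, YTHDF1 and ALKBH5 stood at the percentiles 6.30, 8.16 and 3.69, and the DLD-1 peaks at 81.3, 43.5 and 7.81.

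The FTO mRNA carried peaks with each label at different places. Its SW480 peak chr16:54114047-54114257 on the plus strand, in the 3'-UTR, had a fold of 25 and 2 motif sites, and it overlapped no DLD-1 peak but was in the pooled list. Of the 3 DLD-1 peaks of FTO, 1 was a CDS peak at chr16:53825926-53826106 (fold 29.1, 1 site). Another CDS peak, of 2 blocks, covered 151 bases between chr16:53844189-53873826 (fold 11.8, 1 site, p-value of the authors 0.0013). The last was a 3'-UTR peak at chr16:54112608-54112788 (fold 8.65, p-value of the authors 0.01). All 4 regions were called in the pooled list. ALKBH5 had 2 further DLD-1 peaks, in the CDS at chr17:18208285-18208464 (fold 10.2, 1 site) and in the 3'-UTR at chr17:18209239-18209358 (fold 5.42).

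Among the writers, METTL3 and METTL14 had peaks in the DLD-1 list only, and the difference between lists was not tested. METTL14 carried chr4:118710489-118710639 on the plus strand, in the 3'-UTR (fold 8.65, p-value of the authors 0.01), which was not called in the pooled list. METTL3 carried a peak of 2 blocks and 420 bases within chr14:21498223-21499297 on the minus strand (fold 16.5), 85 bases from the gene end. A second METTL3 peak was at chr14:21503780-21503900 (fold 9.44, p-value of the authors 0.006). The second overlapped no pooled peak, while part of the first did. The first spans a stretch in which 2 peaks were also assigned to TOX4, a neighbouring gene. Since the use of strand in counting is not given in the sources used here, this METTL3 peak is uncertain.

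Of the readers, YTHDF1 had the most DLD-1 peaks. Besides its 3' end peak it carried a second 3'-UTR peak at chr20:63195994-63196113 (fold 2.95, p-value of the authors 0.002). It also had a CDS peak at chr20:63203240-63203419 (fold 27.5, 2 sites). A 5'-UTR peak of 2 blocks and 179 bases lay within chr20:63215584-63216026 (fold 4.33, 2 sites, p-value of the authors 0.0019). Of these 3, the CDS peak was called in the pooled list. YTHDF3, with the highest RIP over Input, had a CDS peak at chr8:63187268-63187418 (fold 19.7) and a 3'-UTR peak at chr8:63210214-63210692 (fold 29.9, 1 site), both on the plus strand and both in the pooled list. It had no SW480 peak. YTHDC1, with RIP below Input, had a 3'-UTR peak at chr4:68313917-68314097 on the minus strand (fold 10.2, p-value of the authors 0.0036). It also had a CDS peak of 5 blocks and 270 bases within chr4:68316346-68320125 (fold 8.18, 3 sites). The 3'-UTR peak was called in the pooled list, and the CDS peak was not. Of the genes with RIP above both Inputs of the RIP table, METTL3, METTL14 and YTHDF3 carried 2, 1 and 2 DLD-1 peaks, and of those below both, RBM15 carried 0 and YTHDC1 2. None of these genes had an SW480 peak. How often genes above or below their Inputs carried a peak was not counted over all tested genes.

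The motif that the authors counted is a 12-base pattern with 4 evenly spaced Cs. At least 1 site was listed for 3 of the 4 SW480 peaks (75.0%), 10 of the 18 DLD-1 peaks (55.6%) and 8 of the 14 pooled peaks (57.1%) on the 10 genes. Over all peaks of each list the shares were 56.2% (95% exact binomial interval 55.2 to 57.2), 55.1% (54.3 to 55.9) and 54.1% (53.4 to 54.9).

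Thereafter, 38 further genes of the pathway were counted in 5 lists, 37 of them among the tested genes. In the SW480-labelled pair, 6 of the 37 were called higher in RIP and 1 lower, and in those with the DLD-1 label 6 were called higher and 4 lower. Of all tested genes 15.6% and 16% were called in these directions for SW480, and 15.1% and 19.2% for DLD-1. Over the opposite-label Inputs the counts were 7 and 0 for RIP labelled SW480, and 4 and 1 for RIP labelled DLD-1, beside 9.24% and 11.7%, and 9.36% and 11.8%, of all tested genes.

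Of the 9 other writers and writer partners, VIRMA (log2 1.0), METTL5 (1.49) and TRMT112 (1.70) were called higher in the SW480-labelled pair, and in those with the DLD-1 label ZCCHC4 (1.13) was called higher and ZC3H13 (-1.55) lower. The list medians were -0.03 and 0.18. METTL5 and TRMT112, the methyltransferase that places m6A on small-subunit ribosomal RNA and its activating partner, were both called higher in each RIP library over the opposite-label Input, at 1.10 and 1.30 for METTL5 and 1.16 and 1.38 for TRMT112. ZC3H13, a partner of WTAP in the writer complex, was below Input in each ratio, from -0.41 in libraries with the SW480 label to -1.55. A peak was present on 4 of the 9 in the SW480 list (44.2% of all tested genes) and on 7 in the DLD-1 list (48.8%).

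Of the 11 other readers, 10 were tested, with list medians of 0.54 and 0.05. In the SW480-labelled pair, IGF2BP3 (2.56) was called higher, and in those with the DLD-1 label YTHDC2 (1.01) was called higher and IGF2BP2 (-1.01), IGF2BP3 (-1.22) and FMR1 (-1.23) lower. Over the opposite-label Input only YTHDC2 in RIP labelled SW480 was called (1.28). IGF2BP3, an RNA-binding protein that stabilises methylated mRNA, stood at 34.7 and 8.74 FPKM in RIP and 5.05 and 21.6 in Input labelled SW480 and DLD-1. IGF2BP1, which was not tested, was listed at 0 in the Input labelled SW480 and stood at 13.3 FPKM in Input DLD-1, with 10.4 in RIP SW480 and 0.0432 in RIP DLD-1. Like ALKBH5, both had their high RIP and their high Input under different labels. Of the 11 readers 8 had a peak in each list (44.2% and 48.8% of all tested genes), and 6 had one in both. The share of all tested genes with a peak in both lists was not counted.

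For methyl donor supply, MAT2A, a synthetase of the methyl donor S-adenosylmethionine, was called higher in libraries with the DLD-1 label (1.03). MAT2A was at -0.25 in those labelled SW480. All 3 genes of this group (medians 0.38 and 0.72) had a peak in each peak list, against 44.2% and 48.8% of all tested genes. The share of all tested genes with a peak in both was not counted. Of the 12 CCR4-NOT subunits and decay partners of YTHDF2, CNOT7, a deadenylase subunit, was called higher with every pairing, at 1.16 and 1.49 over the same label and 1.38 and 1.28 over the other. RIDA, an adaptor in the decay of methylated mRNA bound by YTHDF2, was also higher with every pairing (1.88 and 1.52, then 1.85 and 1.55), though its Inputs held 40 and 38 reads. CNOT10 was called higher in libraries with the DLD-1 label (1.09), and CNOT6 (1.10) and CNOT10 (1.16) in RIP labelled SW480 over the opposite label. The list medians were 0.34 and 0.46 as labelled, and 6 and 10 of the 12 genes had a peak in the SW480 and DLD-1 lists, against 44.2% and 48.8% of all tested genes. Among the 3 splicing and export partners of YTHDC1 (medians -0.66 and 0.06), SRSF3, a splicing factor, was called lower in libraries with the SW480 label (-1.22) and was at 0.46 in those with the DLD-1 label.

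**Figure D4:**
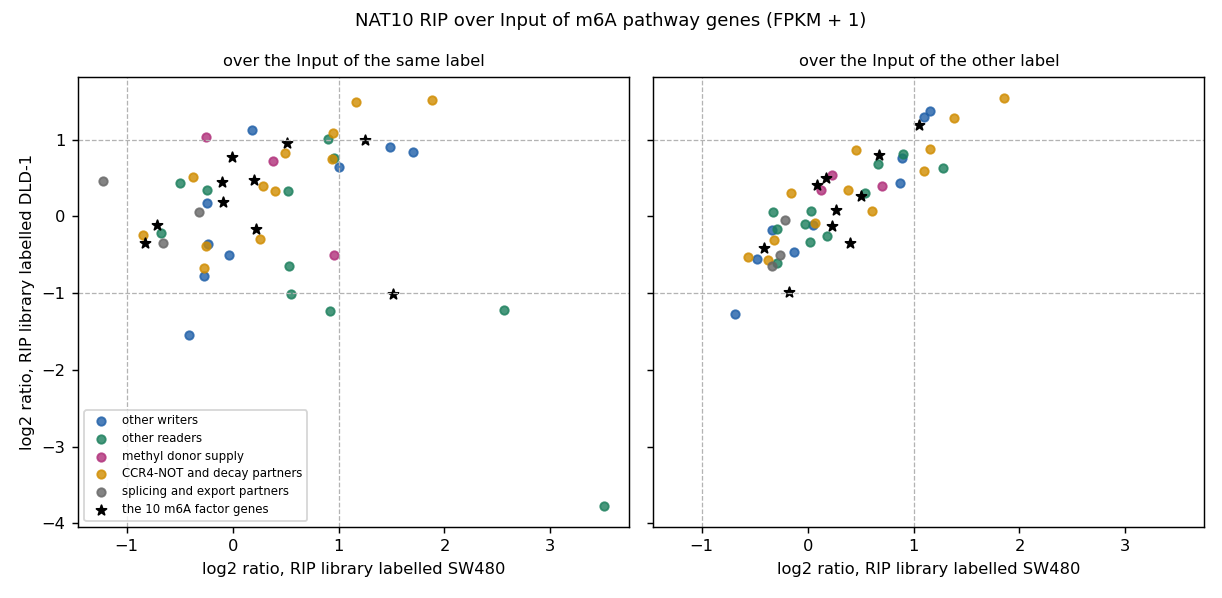
log2((RIP FPKM + 1)/(Input FPKM + 1)) of the 38 further pathway genes (coloured by list) and of the 10 m6A factor genes (stars), for the RIP library labelled SW480 on the horizontal axis and DLD-1 on the vertical axis, over Inputs of the same label (left) and of the opposite label (right). Dashed lines mark 2-fold, and the lone point at the lower right of the left panel is IGF2BP1, whose Input labelled SW480 was listed at 0. Points lie closer to the diagonal in the right panel.

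NAT10 mRNA, which encodes the antibody's target, was at 20.8 and 21.2 FPKM in RIP and Input labelled SW480 and at 14.3 and 23.0 in those with the DLD-1 label. This measures the mRNA and is no check of the precipitation. RIP of NAT10 mRNA was not called against Input with either label (-0.03 and -0.65).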

How the data were processed

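SW480 and DLD-1 gave 1 Input, 1 RIP and 1 acRIP library each, and the groups were taken from the titles. Sequencing and processing were done by Guangzhou Epibiotek, a sequencing provider, and the submitters' processing notes name cutadapt 2.5 and HISAT2 2.1.0 and the builds GRCh38 and hg38. The peak caller, the counting tool and its use of strand are not given in the sources used here. An IgG group is named in the study's text but Input in the tables and labels, which was used here.

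For RIP-seq the authors deposited FPKM values of 58302 genes. Their ratio columns (RIP over Input per line, and the mean of both) were not used. An acRIP expression table gives Input values with no named unit, read here as FPKM and scaled by the median log2 shift (0.46 in SW480, 0.52 in DLD-1) before use in a ratio. The deposited peak lists give coordinates, an annotation, the motif sites, a p-value and a fold of acRIP over Input as the authors computed them. Starts were counted from 0 and were moved by 1 base. Distances use gene spans of RefSeq on GRCh38.p14.

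Log2 ratios were taken after adding 1 FPKM, a scale that understates differences of low genes, over genes at 1 FPKM or more in both Inputs, and at least 2-fold was called. Whole reads were recovered from the ratios between FPKM columns for 23494 of 23515 genes above 0 in at least 2 columns, within 0.004 of a whole number. Between 46 and 47.2% of the reads of well-counted genes were even, so no column is off by a factor of 2. They are the least reads that give these values, so counting SE are upper limits for the sampling of independent reads only. They set no limit on the whole error. METTL14 labelled SW480, for example, moved from 0.51 (counting SE 0.09) to -0.25 over the acRIP-table Input. limma 3.58.1 (R 4.3.3) was fitted on all tested genes with Benjamini-Hochberg adjustment. With a line block, limma p-values rest on how far the RIP-minus-Input difference disagreed between the 2 pairs of libraries. The spread of each gene was drawn toward that of all genes. Without the block, the difference between lines also counted as spread. Read recovery, calls and limma were tested on simulated data. The simulated lines had no true difference and no crossed labels, so that check covers neither. The named genes are all 10 members with each peak, and of the other pathway genes those called and a few examples. Members and lists were chosen with earlier results of these data known, although the rule for the members uses names only. No sequence was read, since no genome was used here. Alternatives are listed in the closing section.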

Additional observations from a re-analysis of the deposited data

Results flagged for a closer look

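Of the 10 genes, 3 had RIP over Input of opposite signs in the libraries with the SW480 label and DLD-1, each by more than 2 counting SE in both. With 1 library per group, none of these differences was tested. How often signs differed over all tested genes was not counted. Neither this count nor the sign counts below therefore mark out the 10 genes. The log2 ratio labelled SW480 minus that labelled DLD-1 was 2.52 for ALKBH5, 0.38 for FTO and -0.28 for YTHDF1. Over the opposite-label Inputs ALKBH5 had the same sign in both RIP libraries (0.09 and 0.41), while FTO (0.40 and -0.35) and YTHDF1 (0.23 and -0.12) had opposite signs there too. Over the acRIP-table Inputs FTO was above 0 in both (0.67 and 0.11 on the same label, 0.67 and 0.10 on the opposite label), while YTHDF1 had opposite signs (-0.12 and 0.57, and 0.61 and -0.16). Across the 10 genes the log2 ratios of the 2 RIP libraries had the same sign in 5 over the same label and in 8 over the opposite label, and their median absolute difference was 0.46 and 0.27, against 0.76 and 0.28 over all tested genes.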

How the results depend on the processing

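As labelled, 2 genes were called higher and 0 lower for SW480, and 0 higher and 1 lower for DLD-1. Over the opposite-label Input 1 was called higher for each label and 0 lower for DLD-1. The opposite-label Input of the acRIP table, added after seeing the data, also gave 1 higher for each label, and its 1 lower for DLD-1 was YTHDC1, not ALKBH5. Centring on protein-coding genes and the acRIP-table Input each gave 1 lower for SW480. A pseudocount of 0.1 and the acRIP-table Input each gave 2 higher for DLD-1. ALKBH5 in libraries with the DLD-1 label turned from -1.01 to 0.41 over the opposite-label Input and to 0.42 over that of the acRIP table. The limma fit pairs RIP and Input by the line block (0 of the 10 genes called, 0 higher and 9 lower over all genes). Without the block limma called 0 of the 10 (2 at an unadjusted p under 0.05) and 33 higher and 160 lower over all genes. With the opposite-label Input in the block it called 2 of the 10 higher, near the share of all genes (2298 higher and 2312 lower of 12324). Signs turned for 5 of 20 single-gene ratios over the opposite-label Input and for 6 of 20 over that of the acRIP table. They turned for 3 of 20 over the acRIP-table Input of the same label and for 0 with centring. Another pseudocount cannot turn a sign, and the filter on low genes cannot either, since all 10 genes passed it.

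Keeping peaks at or above the median fold of their list left 1 peak on 1 gene for SW480 and 6 peaks on 5 genes for DLD-1. A p-value under 0.001, added after seeing the data, left 11 peaks on 7 genes for DLD-1 and all 4 for SW480. The share of all tested genes was not counted at either cut. These counts therefore cannot be set against the 44.2% and 48.8% of the uncut SW480 and DLD-1 lists. A false discovery rate under 0.05 and hosts by overlap with exons were planned and not run, because the rate column holds spreadsheet errors and no genome was used here. Leaving out 1 library leaves the limma fit with no residual degrees of freedom. One library per group and the labels limit every value above.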
